A study of Homo sapiens with 6 samples.

Results

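Expression of 8 human genes that encode cyclin L, its CDK11 kinases and factors that process the end of RNA polymerase II transcripts was examined in U2OS cells, an established human osteosarcoma line, after treatment with a topoisomerase II poison. The members were chosen by name, as cyclin L and CDK11 genes and the RNA processing genes INTS11 and SSU72, together with the related kinases CDK12 and CDK13. The 8 are among 67140 genes listed in the etoposide libraries, and 5 of them (CCNL2, CDK11A, CDK11B, INTS11 and SSU72) are among the 220 genes listed in all 6 libraries. The remaining 3 (CCNL1, CDK12 and CDK13) were analysed in the etoposide libraries alone, and their counts in control and adriamycin-treated cells were not analysed here.

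RNA-Seq of poly-A RNA compared untreated wild-type U2OS cells (control) with cells given adriamycin (1.5 μg/ml) or etoposide (100 μM), each drug for 4 h and each group with 2 libraries. Adriamycin (doxorubicin) is an anthracycline that intercalates into DNA and poisons topoisomerase II, whereas etoposide poisons topoisomerase II without intercalating. The comparison of the drugs asks which changes follow adriamycin and which also follow the other topoisomerase poison. All groups are 1 cancer cell line, and the labels do not say whether libraries of a group came from separate cultures. The study's legend for RNA-Seq read counts of transposable elements names 2 technical replicates a condition. Its legends for Hi-C data state separately cultured cells, and 1 of them also calls these technical replicates. The p-values therefore measure the spread between these libraries, which may be technical.

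The etoposide libraries held 21450766 and 14244235 counts, and the 220 shared genes held 59357 to 92794 counts in the 6 libraries, of which the 5 members made up 7.96% to 9.28%. The shared genes lie between bases 12010 and 4594016 of chromosome 1, so the scaling between groups rests on a small neighbourhood of the genome. The labels call the cells epithelial and the tissue bone. Marker levels in the etoposide libraries are given in length-scaled transcript abundance (TPM). The bone-forming markers COL1A1 and SPARC were at 1368 and 849, ALPL at 11.2 and BGLAP at 0.921. The bone regulators RUNX2 and SP7 were at 2.03 and 0.228. The mesenchymal markers VIM, FN1 and CDH2 were at 551, 114 and 52.9, and COL1A2 and TWIST1 at 0.0599 and 0. Of the epithelial markers, KRT8 and KRT18 were at 451 and 252, and CLDN4 and EPCAM at 19.8 and 18.2. KRT14 and KRT5 were at 3.68 and 0.956, and the epithelial adherence gene CDH1 at 0.802. The epithelial splicing factor ESRP1 and KRT19 were at 0.0417 and 0.0343. The 3 blood markers reached at most 0.0927 TPM and the 3 endothelial markers at most 0.451 TPM. In bulk RNA, fewer cells that express a gene and less RNA per cell cannot be told apart.

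L-type cyclins carry an arginine- and serine-rich region, reside in nuclear speckles and bind the CDK11 kinases, which act in pre-mRNA splicing and transcription. INTS11 is the endonuclease of the Integrator complex, which cleaves nascent RNA at small nuclear RNA genes and at polymerases paused near start sites, and SSU72 is a phosphatase of the carboxy-terminal domain (CTD) of RNA polymerase II that works with the cleavage and polyadenylation machinery. CDK12 and CDK13 bind cyclin K and phosphorylate the same domain during elongation.

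The 5 members with counts in every library lie within a short stretch near the end of the short arm of chromosome 1, all on the minus strand of GRCh38. INTS11 (ENSG00000127054) spans chr1:1311585-1324687, CCNL2 (ENSG00000221978) chr1:1385711-1399335 and SSU72 (ENSG00000160075) chr1:1541673-1574863. CDK11B (ENSG00000248333) spans chr1:1635225-1659012 and its near-identical copy CDK11A (ENSG00000008128) chr1:1702379-1724357. The other members lie elsewhere, CCNL1 (ENSG00000163660) at chr3:157146508-157160760 on the minus strand, CDK12 (ENSG00000167258) at chr17:39461486-39567559 and CDK13 (ENSG00000065883) at chr7:39950121-40099580, both on the plus strand.

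The CDK11 copies limit what their counts can say, and their coding sequences are shown for that reason. The canonical coding sequences of CDK11A (2340 bases) and CDK11B (2346 bases) differed at 26 of 2340 aligned bases, an identity of 98.9%, and shared an identical run of 607 bases. The 120-base coding window with the most differences is printed below, from position 1852 to 1971 of the CDK11A coding sequence and from 1858 to 1977 of that of CDK11B, counted from the start codon in GRCh38 and written 5′ to 3′ along the coding strand, with the 8 differing bases in capitals.
CDK11A: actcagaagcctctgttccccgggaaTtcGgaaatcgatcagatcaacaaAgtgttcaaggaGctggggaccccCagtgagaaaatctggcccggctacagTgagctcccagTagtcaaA
CDK11B: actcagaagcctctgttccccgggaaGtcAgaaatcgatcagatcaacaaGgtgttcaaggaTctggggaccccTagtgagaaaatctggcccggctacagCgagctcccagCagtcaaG
Of all 150-base windows of the canonical transcripts, a length equal to 1 sequencing read, 67.4% of those of CDK11A and 40.3% of those of CDK11B also occurred in another gene, against 0% for each of the other 6 members. Windows that occurred in the other CDK11 copy made up 40.5% for CDK11A and 40.3% for CDK11B. The remaining shared windows of CDK11A occurred in the long noncoding RNA ENSG00000268575 alone. Its exons on the same strand hold 2448 exonic bases of CDK11A (48.1%). The level of CDK11A, and to a lesser degree that of CDK11B, is therefore uncertain. The sources used here do not state how reads with several matches were counted. Nor do they state how reads that lie in exons of overlapping genes were counted. Adding the counts of such genes together cannot restore reads that were left uncounted.

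CCNL2 was the only one of the 5 members that passed the test against control after both drugs. CCNL2 encodes cyclin L2, the regulatory partner of CDK11. Normalized counts, meaning raw counts over a TMM-scaled size factor, were 1626 and 1597 in control cells, 2067 and 2336 in etoposide-treated cells and 2618 and 2414 in adriamycin-treated cells. Both treated groups lay above the control libraries, and every adriamycin library lay above every etoposide library. CCNL2 rose by 0.45 ± 0.089 (SE) on the log2 scale after etoposide (36.4% higher, adjusted p = 1.41e-05, edgeR quasi-likelihood test with Benjamini-Hochberg adjustment over 94 genes). It rose by 0.64 ± 0.090 after adriamycin (56.2% higher, adjusted p = 8.86e-10). Adriamycin against etoposide gave a log2 fold change of 0.20 ± 0.089 that missed the threshold (adjusted p = 0.0555). The rise after adriamycin stayed past the threshold without any 1 library (adjusted p at most 0.00467), while the rise after etoposide was lost without control replicate 2 (0.42, adjusted p = 0.0179), etoposide replicate 1 (0.53, adjusted p = 0.0254) or etoposide replicate 2 (0.34, adjusted p = 0.0226).

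**Figure D1:**
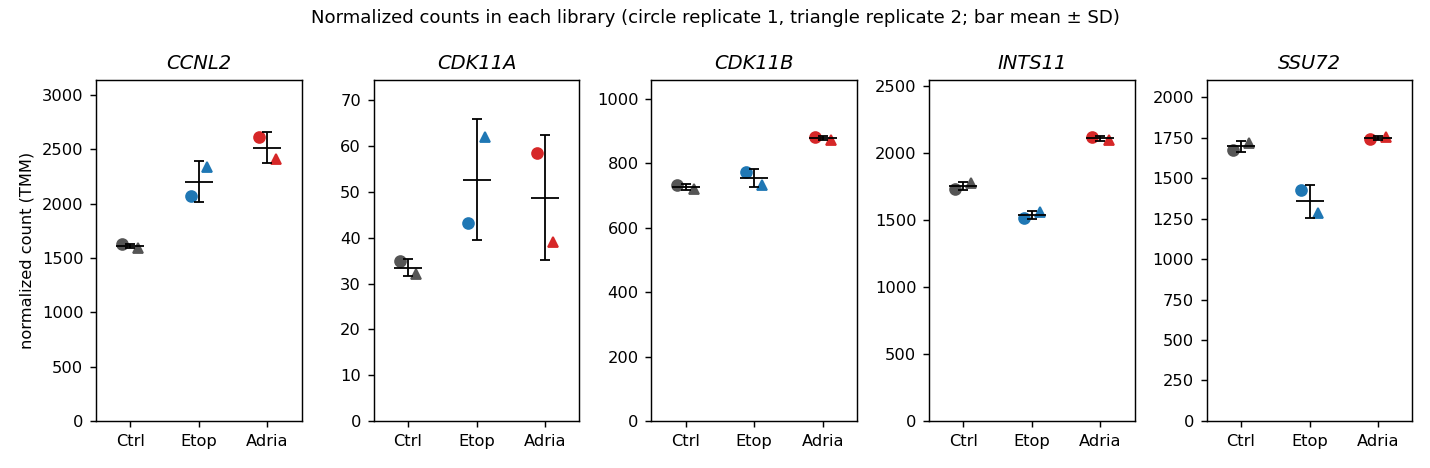
Normalized counts (y axis, TMM scaling) of the 5 members listed in all 6 libraries, by group on the x axis (Ctrl, control, Etop, etoposide, Adria, adriamycin). Points are single libraries (circle replicate 1, triangle replicate 2) and bars are the mean ± SD. CCNL2 lies above control in both treated groups, and SSU72 in etoposide-treated cells lies below the other groups.

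The CDK11 kinase genes differed less. CDK11B held 733 and 719 normalized counts in control cells, 774 and 734 after etoposide and 884 and 874 after adriamycin. The control and etoposide libraries were close to each other and the adriamycin libraries stood above both. The log2 fold change was 0.06 ± 0.099 (SE) for etoposide against control (adjusted p = 0.746, edgeR) and 0.28 ± 0.10 for adriamycin against control, which missed the threshold of 0.01 (adjusted p = 0.0183, edgeR). Adriamycin against etoposide gave 0.22 ± 0.10 (adjusted p = 0.0555, edgeR). The adriamycin value against control depended on the setting: it passed with median-of-ratios factors (0.37, adjusted p = 0.0052, edgeR), upper-quartile scaling (0.47, adjusted p = 0.000129), the DESeq2 Wald test (0.38, adjusted p = 0.0079) and a minimum of 10 counts in every library (0.26, adjusted p = 0.00938), and was 0.06 with library size alone (adjusted p = 0.606).

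CDK11A was detected at far fewer counts, 43 and 28 in control cells, 64 and 59 after etoposide and 54 and 28 after adriamycin. Normalized, these are 34.8 and 32.1, then 43.3 and 62.1, then 58.4 and 39.1. The treated libraries lay above both control libraries, but the libraries of a treated group differed by as much as the groups did. Log2 fold changes were 0.62 ± 0.35 (SE) for etoposide (adjusted p = 0.158, edgeR) and 0.56 ± 0.36 for adriamycin (adjusted p = 0.206, edgeR), so a change of CDK11A was not detectable at this depth. The etoposide value was 0.34 without etoposide replicate 2 and 0.87 without etoposide replicate 1, and the adriamycin value was 0.28 without adriamycin replicate 1 and 0.81 without adriamycin replicate 2. The overlapping noncoding RNA ENSG00000268575 held 11 and 15 counts in control cells, 47 and 26 after etoposide and 6 and 5 after adriamycin. With its counts added to those of CDK11A (added after the data were seen), the log2 fold change was 0.83 after etoposide (adjusted p = 0.0273, edgeR) and 0.28 after adriamycin (adjusted p = 0.476, edgeR), again without passing.

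With the copies summed, so that reads split between them are counted together, the log2 fold change was 0.09 (adjusted p = 0.466, edgeR over 93 features) after etoposide, 0.29 after adriamycin (adjusted p = 0.00928) and 0.20 for adriamycin against etoposide (adjusted p = 0.0675). The rise of the sum after adriamycin was lost without any 1 library, with adjusted p between 0.0261 and 0.0895, and with the replicate number as a block (adjusted p = 0.0124). CDK11A took 4.54% (95% Wilson interval 3.38% to 6.05%) and 4.27% (2.97% to 6.11%) of the CDK11 counts in control libraries. Its share was 5.30% (4.17% to 6.71%) and 7.79% (6.09% to 9.92%) in the etoposide libraries and 6.20% (4.78% to 8.0%) and 4.28% (2.98% to 6.12%) in the adriamycin libraries. The intervals of all libraries overlapped except those of etoposide replicate 2 with control replicate 1. These intervals cover counting error only, and with 2 libraries a group the exact permutation test cannot go below p = 0.33, so the share was not tested.

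**Figure D2:**
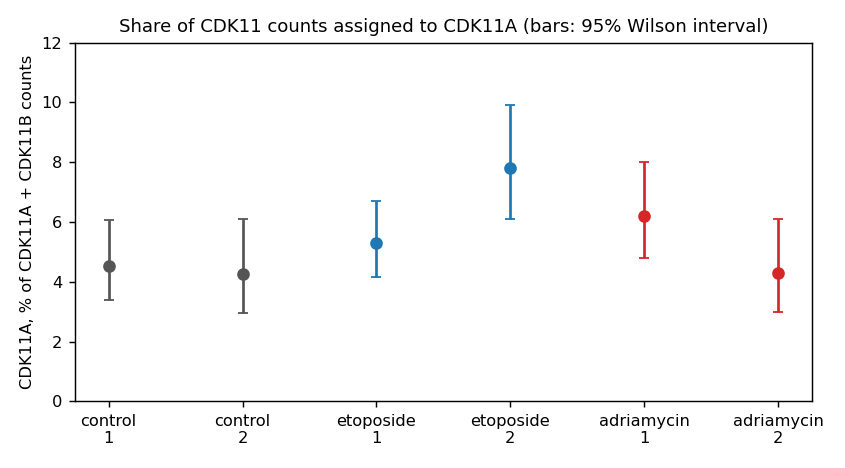
Share of CDK11A in the summed counts of CDK11A and CDK11B (y axis, percent) in each library (x axis). Points are shares and bars are 95% Wilson intervals. The shares lie between 4.27% and 7.79%, with etoposide replicate 2 highest.

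INTS11 and SSU72, which act at the end of transcripts, passed the test between the drugs. So did 45.7% of the 94 genes tested, so this is not particular to them. INTS11 held 1731 and 1772 normalized counts in control cells, 1515 and 1558 after etoposide and 2121 and 2095 after adriamycin. Its groups did not overlap, with the etoposide libraries lowest and the adriamycin libraries highest. INTS11 rose by 0.27 ± 0.089 (SE) on the log2 scale after adriamycin (adjusted p = 0.00878, edgeR). After etoposide the log2 fold change of −0.19 ± 0.089 did not pass (adjusted p = 0.0965, edgeR). INTS11 was higher in adriamycin-treated than in etoposide-treated cells by 0.46 ± 0.089 (adjusted p = 5.05e-06, edgeR). The rise against control was lost without any 1 library except etoposide replicate 2, the highest adjusted p being 0.0813 without control replicate 1. The difference between the drugs was lost without etoposide replicate 1 (adjusted p = 0.0106), and with library size alone in place of TMM both were at 0.05 and did not pass.

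SSU72 held 1673 and 1720 normalized counts in control cells, 1430 and 1286 after etoposide and 1741 and 1757 after adriamycin. The etoposide libraries were the lowest, and the adriamycin libraries were close to control. SSU72 fell by 0.32 ± 0.090 (SE) on the log2 scale after etoposide (adjusted p = 0.00297, edgeR). Adriamycin against control gave 0.04 ± 0.091 (adjusted p = 0.682, edgeR). SSU72 was higher after adriamycin than after etoposide by 0.36 ± 0.091 (adjusted p = 0.000333, edgeR). The fall after etoposide is the least settled of these calls: without each of the 6 libraries in turn its adjusted p was 0.0110 to 0.0561, and it passed under 4 of 17 alternative settings, among which upper-quartile scaling gave −0.10. The difference between the drugs was lost without etoposide replicate 1 (adjusted p = 0.0106) or replicate 2 (adjusted p = 0.0110), and with library size alone it turned to −0.05.

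**Figure D3:**
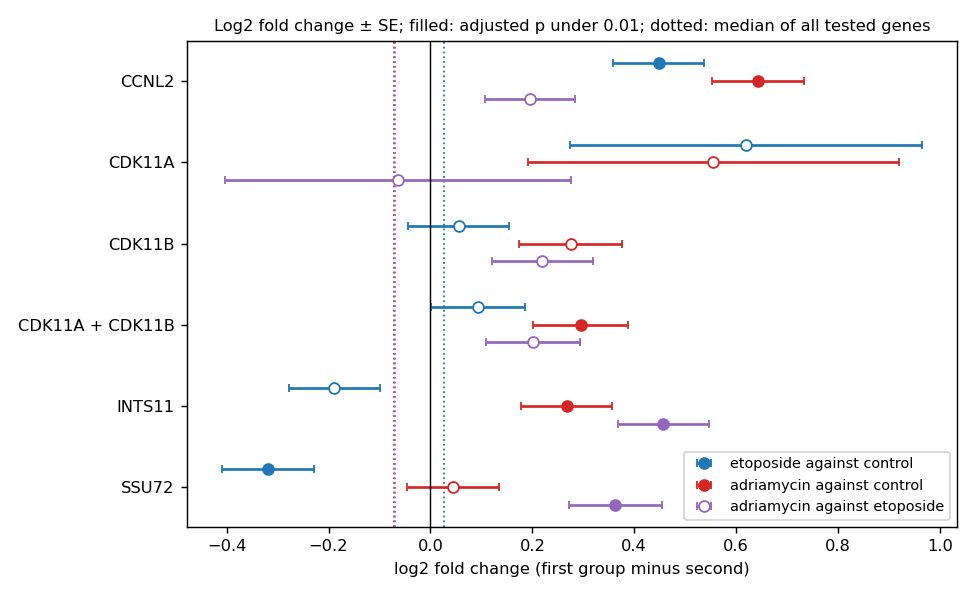
Log2 fold change ± SE (x axis) of each member, and of the summed CDK11 genes, in the 3 comparisons (colours), from the edgeR fit of 6 libraries. Filled points have an adjusted p under 0.01, open points do not, and dotted lines mark the median of all 94 genes tested, which nearly coincide for the comparisons that involve adriamycin. CCNL2 is filled against control after both drugs, and INTS11 and SSU72 are filled for adriamycin against etoposide.

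Counted together, 2 of the 5 members passed an adjusted p of 0.01 after etoposide, CCNL2 higher and SSU72 lower, where 22.3% of the 94 genes tested passed (5.32% higher and 17% lower). After adriamycin 2 of the 5 passed, CCNL2 and INTS11, both higher, against 38.3% of all genes tested (19.1% higher). For adriamycin against etoposide 2 of the 5 passed, INTS11 and SSU72, both higher, against 45.7% of all genes tested (21.3% higher and 24.5% lower). In the comparisons that involve adriamycin the members' share is near the background. With the additional requirement of a change over 1 on the log2 scale, 0 of the 5 members were called by edgeR or by DESeq2 in any comparison, where edgeR called 5.32%, 8.51% and 12.8% of all genes tested. At an unadjusted p under 0.05, edgeR gave 3, 3 and 4 members, against 42.6%, 54.3% and 56.4% of all genes tested. Library ranges did not overlap for 5, 5 and 4 of the 5 members, against 70.2%, 75.5% and 77.7% of all genes tested. The median log2 fold change of the members was 0.06, 0.28 and 0.22 in the same order, and that of all genes tested 0.03, −0.07 and −0.07. The comparisons share the control or a drug's libraries, so they are not independent.

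Scaling on few genes is the main limit on the direction of small changes, since library size alone moved the median of all genes by 0.19 after etoposide, −0.22 after adriamycin and −0.41 between the drugs, and upper-quartile scaling by 0.22, 0.19 and −0.04. Measured from the median of all genes tested, CCNL2 stood 0.42 higher after etoposide and 0.71 higher after adriamycin on the log2 scale, SSU72 −0.35 and 0.12, INTS11 −0.22 and 0.34, and CDK11B 0.03 and 0.35. Ratios of counts within a library need no scaling. The ratio of CCNL2 to INTS11 was 0.940 and 0.901 in control libraries, 1.36 and 1.50 after etoposide and 1.23 and 1.15 after adriamycin, so it was higher in every treated library than in either control library. The ratio of CCNL2 to SSU72 was 0.972 and 0.929, then 1.45 and 1.82, then 1.50 and 1.37. The ratio of INTS11 to SSU72 was 1.03 and 1.03 in control libraries, 1.06 and 1.21 after etoposide and 1.22 and 1.19 after adriamycin. Neither drug's libraries overlapped control, although etoposide replicate 1 lay close to it. CDK11B to INTS11 was 0.424 and 0.406 in control libraries, 0.511 and 0.471 after etoposide and 0.417 and 0.417 after adriamycin. A ratio shows only that its genes changed unequally.

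**Figure D4:**
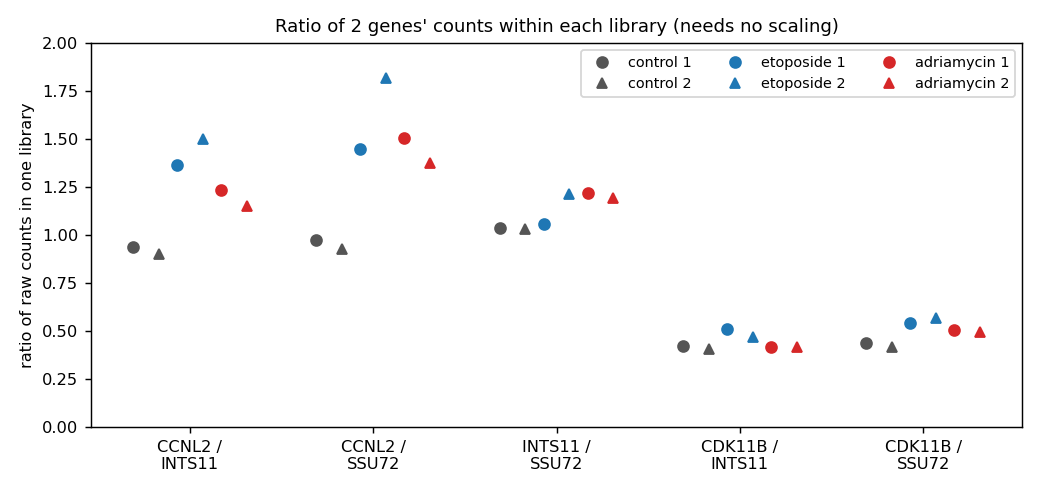
Ratio of the raw counts of 2 members in the same library (y axis) for the pairs named on the x axis. Colours are groups, circles replicate 1 and triangles replicate 2. The ratios of CCNL2 to INTS11 and to SSU72 lie below 1 in control libraries and above 1 in all treated libraries.

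Divergent transcription starts gave a further view of CCNL2 and INTS11, each of which begins next to a gene on the opposite strand. CDK11A, CDK11B and SSU72 also have an opposite-strand gene that starts within 1 kb (ENSG00000227775, ENSG00000272004 and ENSG00000215014, respectively). The last of these starts inside SSU72. The sequences between the starts of the CCNL2 and INTS11 pairs are printed, because both genes of a pair begin at their edges. They are written 5′ to 3′ on the minus strand of GRCh38, with matches to the GC box GGGCGG and the CCAAT box CCAAT (either strand) in capitals. The gap between INTS11 and CPTP, which encodes a ceramide-1-phosphate transfer protein, is 68 bases at chr1:1324688-1324755. That between CCNL2 and the noncoding RNA MRPL20-AS1 is 179 bases at chr1:1399336-1399514.
INTS11: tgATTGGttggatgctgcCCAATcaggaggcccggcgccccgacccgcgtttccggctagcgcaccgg
CCNL2: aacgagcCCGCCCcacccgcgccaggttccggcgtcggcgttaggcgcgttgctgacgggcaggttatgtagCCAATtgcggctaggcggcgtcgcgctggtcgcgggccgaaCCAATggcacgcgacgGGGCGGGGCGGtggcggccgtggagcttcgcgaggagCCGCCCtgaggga
The first holds 2 CCAAT boxes and the second holds 4 GC boxes and 2 CCAAT boxes. Of 27305 RefSeq promoters (GRCh38.p14, 300 bases each), 44.6% hold a GC box and 35.7% a CCAAT box, so such matches are common, although those windows are longer than these gaps.

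The partners MRPL20-AS1 and CPTP did not follow CCNL2 and INTS11 after adriamycin. The partners of CDK11A and CDK11B held at most 7 and 6 counts in a library and were not tested. That of SSU72, ENSG00000215014, held 5 to 19 counts. It was at 1.01 ± 0.77 (SE) on the log2 scale after adriamycin (adjusted p = 0.274, edgeR), where SSU72 was at 0.04. MRPL20-AS1 held 251 and 160 counts in control cells, 321 and 179 after etoposide and 58 and 37 after adriamycin. Its log2 fold change was 0.07 ± 0.17 (SE) after etoposide (adjusted p = 0.803, edgeR), and it fell by 1.75 ± 0.21 after adriamycin (adjusted p = 3.43e-12), where CCNL2 rose. CPTP, named after its values were seen, held 378 and 214 counts, then 481 and 258, then 107 and 62. It was at 0.11 ± 0.14 on the log2 scale after etoposide (adjusted p = 0.594, edgeR) and fell by 1.44 ± 0.17 after adriamycin (adjusted p = 1.87e-12), where INTS11 rose. The gene on the other side of CCNL2, AURKAIP1, which acts in mitochondrial translation, rose by 0.34 after adriamycin (adjusted p = 0.00119, edgeR), and MIB2, a ubiquitin ligase gene beside CDK11B, rose by 1.10 after etoposide (adjusted p = 5.73e-13, edgeR) and by 0.55 after adriamycin (adjusted p = 0.000239). The tested neighbours SLC35E2B, ENSG00000215014, ENSG00000269737 and ENSG00000240731 did not pass against control. Among the RNA-processing genes nearby, the ribosome biogenesis gene NOC2L rose by 0.41 after adriamycin (adjusted p = 3.70e-05, edgeR) and the pseudouridine synthase-like gene PUSL1, which shares 93 exonic bases with INTS11 on the opposite strand, did not pass (adjusted p = 0.802). NOC2L and PUSL1 were the only genes of the pathway lists found in all 6 libraries, so after adriamycin 1 of the 2 passed, and after etoposide neither passed (NOC2L at −0.18, adjusted p = 0.107, edgeR).

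The start regions of CDK11A and CDK11B are alike as well, as the 150 bases before each start show, at chr1:1724358-1724507 and chr1:1659013-1659162, 5′ to 3′ on the minus strand with the ETS-type core GGAAGT (either strand) in capitals.
CDK11A: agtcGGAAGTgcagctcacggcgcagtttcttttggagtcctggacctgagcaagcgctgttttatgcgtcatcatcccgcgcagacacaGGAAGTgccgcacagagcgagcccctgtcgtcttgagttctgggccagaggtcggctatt
CDK11B: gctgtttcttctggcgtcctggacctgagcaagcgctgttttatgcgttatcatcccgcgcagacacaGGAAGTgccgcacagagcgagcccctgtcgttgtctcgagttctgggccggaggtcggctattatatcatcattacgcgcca
Of 128 bases aligned without a gap, 122 (95.3%) were identical. The printed stretch of CDK11A holds 2 of these cores and that of CDK11B holds 1. In the longer RefSeq promoter windows CDK11A and CDK11B hold 3 each, so the difference depends on the window. Of all RefSeq promoters, 23.2% hold at least 1. The TATA box TATAAA and the cAMP-response core TGACGT, searched on both strands and held by 12% and 8.32% of those promoters, had no match in any of the 4 printed windows. The alike starts stand beside control levels that differed widely, 34.8 and 32.1 normalized counts for CDK11A against 733 and 719 for CDK11B, subject to the uncertain read assignment above.

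The genes whose pattern over the 6 libraries was most like a member's were found by the root-mean-square distance of centred log2 normalized counts among the 94 genes tested. For CCNL2 the nearest was the interferon-stimulated gene ISG15 (0.0697), then the NAD kinase gene NADK (0.148). For CDK11B they were FAAP20 (0.0711) and NADK (0.0812), for INTS11 ACAP3 (0.0836) and ATAD3A (0.0873), and for SSU72 INTS11 (0.108) and ATAD3A (0.112). CDK11A lay nearest to CCNL2 (0.209) and ISG15 (0.212), at larger distances than the other members. Distances were computed from the same 6 libraries as the fold changes and are a description.

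Per kilobase of exon, the control levels of CCNL2, SSU72, INTS11 and CDK11B lay close together when all exons were counted, at 236, 245, 213 and 208 normalized counts, while CDK11A was at 6.58. After etoposide they were 322 for CCNL2, 196 for SSU72, 187 for INTS11, 216 for CDK11B and 10.4 for CDK11A, and after adriamycin 368, 253, 257, 252 and 9.59. CCNL2 was thus second in control cells and first in both treated groups on this scale. Both the closeness and the order rest on the length used: per kilobase of the longest transcript the control levels were 362 for CCNL2, 406 for SSU72, 569 for INTS11 and 243 for CDK11B, and INTS11 was first in all 3 groups.

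In the etoposide libraries, where all 8 members were listed, levels per length could be compared. CCNL2 was highest at 71.6 and 80.0 TPM, above CDK11B at 52.5 and 49.3 TPM. SSU72 followed at 49.0 and 43.6 TPM and INTS11 at 43.7 and 44.5 TPM, and these neighbours in the order did not differ beyond the range of their libraries. CCNL1, the gene of the other L-type cyclin, was at 29.6 and 34.0 TPM. CDK12 was at 16.1 and 20.01 TPM, CDK13 at 6.22 and 7.73 TPM and CDK11A at 2.02 and 2.86 TPM. CCNL2 thus stood at a mean of 75.8 TPM against 31.8 TPM for CCNL1, and CDK12 at 18.1 against 6.97 TPM for CDK13. With the longest transcript of each gene these were 87.8 against 43.5 TPM and 21.3 against 13.7 TPM. The size of both gaps therefore depends on the length used. Among 17148 genes with at least 10 counts in both libraries, CCNL2 lay at percentile 87.5 and CDK11A at percentile 18.4, and the median gene was at 12.3 TPM. The order of levels depends on the transcript length used: with the longest transcript of each gene INTS11 came first, and 5 of the 8 members kept their rank.

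Other genes of these pathways give a scale for those levels in the same libraries. Of 12 transcription kinase and cyclin genes, the lowest was the Mediator kinase CDK19 (4.38 TPM), the median 28.4 TPM and the highest CDK9 (139 TPM), the kinase that releases paused polymerase, with its cyclin CCNT1 at 53.7 TPM. The cyclin of CDK12 and CDK13, CCNK, was at 7.47 TPM and the kinase of the initiation factor TFIIH, CDK7, at 25.9 TPM. INTS11 at a mean of 44.1 TPM lay above the median of 16 other Integrator genes (27.9 TPM, from 3.54 for INTS6 to 217 for INTS1) and close to its cleavage homologue CPSF3 (46.6 TPM). These levels use the length of all exons. With the longest transcript INTS11 was at 88.6 TPM, and the list genes are not given on that length, so the closeness rests on the length used. SSU72 at a mean of 46.3 TPM lay above the median of 7 CTD phosphatase and adaptor genes (24.3 TPM, from 7.51 for RPAP2 to 59.6 for CTDSP2). The 20 cleavage and polyadenylation genes had a median of 46.1 TPM (from 4.67 for FIP1L1 to 259 for CPSF1), and the 14 SR protein genes, which encode splicing factors, a median of 87.7 TPM (from 2.1 for SRSF12 to 372 for SRSF2). The CDK11 partner genes SF3B1 and SAP30BP were at 94.7 and 31 TPM.

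**Figure D5:**
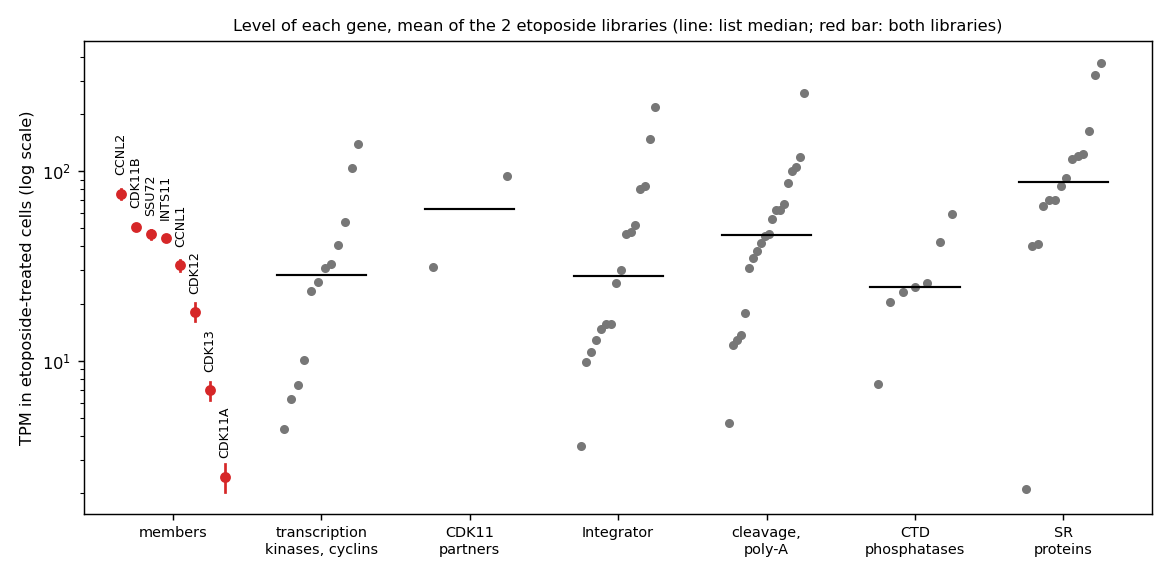
Mean TPM of the 2 etoposide libraries (y axis, log scale) for the members and for 6 lists of related genes (x axis). Points are genes, lines are list medians and red bars join a member's libraries. The members span from CDK11A at 2.44 TPM to CCNL2 at 75.8 TPM.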

How the data were processed

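Poly-A RNA-Seq of U2OS cells gave 3 groups of 2 libraries, taken from the sample labels. Alignment by the authors used HISAT2 2.1.0 on GRCh38, and featureCounts (Subread 2.0.0) gave the raw counts per Ensembl gene that the authors deposited. The strand, multi-mapping and gene-overlap options are not given in the sources used here. Control and adriamycin libraries were analysed over their first 220 to 292 genes, the unfinished last line of each being left out. Other genes of these libraries were not analysed here.

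The 220 genes of all 6 libraries entered 1 quasi-likelihood fit of edgeR 4.0.16 under R 4.3.3, with TMM scaling, the default filter (94 genes tested), no replicate block and Benjamini-Hochberg adjustment. The thresholds were an adjusted p of 0.01 and, for called genes, a change over 1 on the log2 scale. The standard error was the fold change divided by the square root of F. TPM used exon lengths from GENCODE release 44. Libraries of 1 group differed by more than sampling noise (chi-square per degree of freedom 3.14 to 4.73).

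The procedure was tested on simulated data for adriamycin against control, with changes of 2 on the log2 scale and 1 common spread. It recovered 187 of 198 changed genes, and 2 of 727 unchanged genes passed. These changes are larger than those of the members, so the simulation does not show how well changes of their size are detected. Alternatives were other scalings, filters, DESeq2 1.42.0, fewer libraries, the replicate block, leaving out each library and, added after the data were seen, 3 further settings. The genes named were all members, their tested neighbours and exon-overlapping genes, the 2 most alike genes, and the extremes of each list with a few others beside a member. Also named were genes that start within 1 kb of a member's start on the other strand. A neighbouring gene is not reported here. Members, lists and tests were chosen with earlier results of these data known. Sequences came from GRCh38 and RefSeq promoters (GRCh38.p14). Scripts ran on Python 3.11.15 with pandas 2.3.3.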

Additional observations from a re-analysis of the deposited data

How the results depend on the processing

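Counts of members past an adjusted p of 0.01 were small and moved easily. For etoposide against control, where the count was 2, it was 1 with library size alone, upper-quartile scaling or DESeq2's median-of-ratios factors, with the DESeq2 Wald test, with no filter beyond 1 count, only the 4 libraries compared, and these libraries over 280 genes (added after the data were seen), and 0 to 1 without each library. For adriamycin against control, where the count was 2, it was 3 with median-of-ratios factors, upper-quartile scaling, the DESeq2 Wald test, at least 10 counts in every library and an adjusted p under 0.05, CDK11B being the gene gained in each, and 1 with library size alone, with no filter and without AGRN in the table (added later), and 1 to 2 without each library. For adriamycin against etoposide it was 0 with library size alone, 1 with only the 4 libraries compared, and 0 to 2 without each library. Where a library was left out, the remaining library of its group was assumed to vary like the other groups.

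The summed CDK11 genes passed after etoposide with upper-quartile scaling (0.34 on the log2 scale). After adriamycin the sum did not pass with library size alone (0.072), no filter (0.29), only the 4 libraries compared (0.33) or without each library (0.27 to 0.34), and it was −0.21 for adriamycin against etoposide with library size alone. Under a replicate block, the sum after adriamycin was 0.29 (adjusted p = 0.0124, edgeR), and the block changed no other call on a member. Deviations of libraries with the same number correlated at −0.07 to 0.04 over 75 genes, so no shared deviation was seen in these genes. Whether libraries with the same number were cultured or processed together cannot be told from this.

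Direction turned for results that had not passed, and for SSU72 between the drugs. INTS11 after etoposide was 0.034 with upper-quartile scaling and 0.0061 with library size alone. With library size alone, SSU72 after adriamycin was −0.17, and between the drugs CCNL2 was −0.21, CDK11B −0.19 and SSU72 −0.049. CDK11A between the drugs was 0.011 with median-of-ratios size factors, and −0.37 to 0.23 without each library, being 0.23 without etoposide replicate 2 and 0.19 without adriamycin replicate 2. The cause was not tested. CCNL2 after adriamycin passed under all 16 alternatives (0.43 to 0.84). Of the alternative values of single members, 205 kept direction and side of the threshold, 29 no longer passed, 5 newly passed and 9 turned direction. Ranks of the etoposide levels were kept by 5 of 8 members with the longest transcript and by 4 of 8 with CPM, which ignores length. Depth limits CDK11A most, with 28 to 64 counts a library.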
